A study of Brassica napus with 24 samples.

Results

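Transcripts of 5 nitrate transporter genes were followed in leaves of oilseed rape (Brassica napus): 4 copies of NPF6.3 (BnaA08g24900D, BnaC08g15370D, BnaA09g47380D and BnaC05g09690D) and NRT2.5 (BnaC03g56990D). The genes are listed under these names in the transporter table of the study, where A and C in an identifier stand for the subgenome of this allotetraploid. They are 5 of the 101040 genes in the count files and 5 of the 54835 genes that passed a filter on low counts, which none of them failed. The table holds transporter genes selected on a difference between water-deficit (WD) and control leaves at 5 d, 11 d or 20 d of treatment. WD against control at these harvests is therefore given as values with no test. The libraries of 18 d took no part in that selection, and tests are given for comparisons that include them. The 5 genes were picked for this report with earlier results of these data known, so these tests are not an independent check.

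NPF6.3, also called NRT1.1 or CHL1, is known in Arabidopsis thaliana as a nitrate transporter of both low and high affinity, which also serves as a nitrate sensor and is itself induced by nitrate. NRT2.5 belongs to the family of high-affinity nitrate transporters, which work with the partner protein NRT3.1. In Arabidopsis it is known for its induction when nitrogen is scarce for a long time, in roots and in shoots, where it takes part in loading nitrate into the phloem.

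Poly(A) RNA of leaf blades that had grown during the treatment was sequenced from wild type plants of the cultivar Trezzor, in 24 libraries of 8 groups with 3 replicates each. WD plants had their irrigation stopped and were harvested at 5 d, when pots had fallen below 50% of field capacity (FC) according to the labels, at 11 d with 25% FC, at 18 d after being kept at 50% FC, and at 20 d after being kept at 25% FC. A control group kept at 80% FC was harvested on each occasion. Replicates were independent plants or pools of plants, so that p-values measure the spread between such samples of 1 greenhouse experiment. The harvest at 11 d takes its day from the soil water content, since the labels give it the date of the 5 d harvest. For 5 d the labels give only an upper bound of the soil water content, and the text of the study gives a value below that bound.

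Between 13263953 and 31112368 read pairs per library were counted on genes. Pairs that fit several loci, 7.77% to 9.45% of all pairs, were counted on no gene, so that reads shared by near-identical copies are missing from every copy, and each copy's level is a lower estimate. The opposite strand held at most 5 counts of any of the 5 genes in a library. Levels are given as CPM, counts relative to the size of the library, with library sizes scaled by the TMM method. Genes annotated as chlorophyll a/b-binding proteins, used as leaf markers, were detected in every library. Of these 3 genes, BnaC02g44590D and BnaCnng14300D were called lower and BnaC08g16790D higher in WD leaves at 18 d. Some libraries stood apart from their group. On a line drawn over all tested genes from the mean of the 5 d controls (position 0) to the mean of the 20 d controls (position 1), the 11 d controls lay at 0.22, 0.59 and 1.0 (replicates 1, 2 and 3), and WD leaves at 18 d lay at 0.75, 0.78 and 0.23. The main WD-control differences of the nitrate transporters at 11 d and 18 d are also given without control replicate 3 of 11 d or WD replicate 3 of 18 d.

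NPF6.3 transcripts were lower in WD leaves than in control leaves at every harvest when the 4 copies were summed. The sum was 16.4, 10.0 and 8.27 CPM in WD leaves at 5 d, against 48.2, 32.4 and 29.3 CPM in controls. At 11 d it was 9.72, 6.54 and 10.1 CPM in WD leaves, against 37.5, 39.2 and 78.5 CPM in controls. WD leaves of these harvests held 31.6% and 17.0% of the mean control level, and no WD library reached the lowest control. The share at 11 d was 22.9% without control replicate 3 and 14.9% without control replicate 1. At 18 d the sum was 33.8, 32.9 and 14.6 CPM in WD leaves, against 87.0, 60.9 and 56.1 CPM in controls. At 20 d it was 28.5, 35.6 and 29.3 CPM in WD leaves, against 80.3, 106 and 76.5 CPM in controls. The groups stayed apart here too, with WD leaves at 39.8% of the mean control level at 18 d (49.0% without WD replicate 3) and 35.6% at 20 d. In bulk leaf tissue, fewer cells that express a gene and less RNA per cell cannot be told apart.

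**Figure D1:**
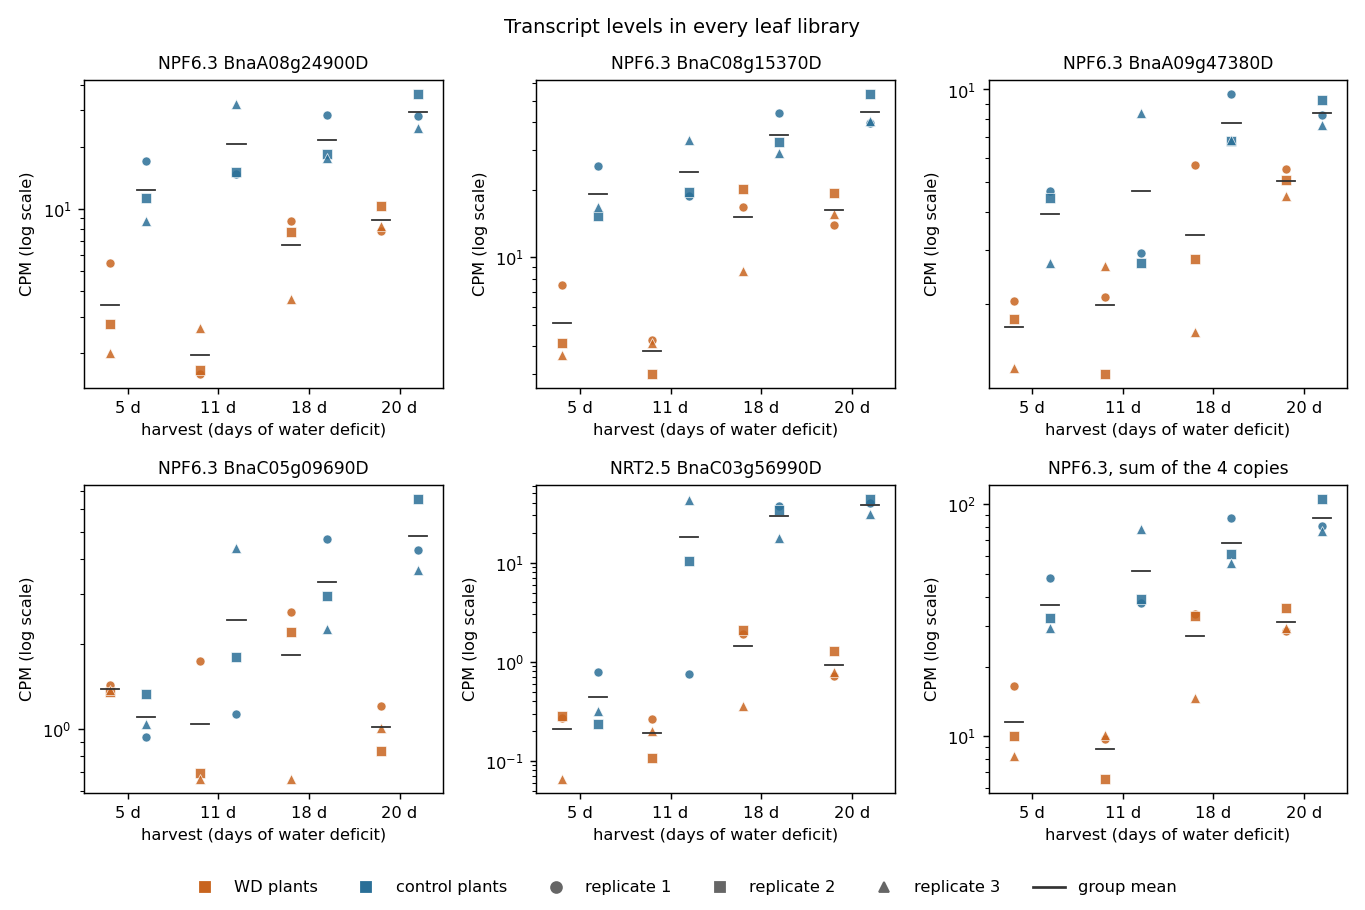
Level of each NPF6.3 copy, of NRT2.5 and of the summed NPF6.3 copies in CPM (log axis) in every library, by harvest. Orange symbols are WD plants, blue symbols control plants, shapes are replicates 1 to 3 and lines are group means. In the copies BnaA08g24900D, BnaC08g15370D and BnaA09g47380D all WD libraries lie below all controls at each harvest. NRT2.5 controls run from 0.233 CPM at 5 d to 44.3 CPM at 20 d, while no WD library exceeds 2.07 CPM.

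The copies were not equally abundant in the counts. Of the counts on the 4 copies, BnaC08g15370D held 40.8% to 61.1% (median 49.9% over 24 libraries) and BnaA08g24900D 16.3% to 41.1% (median 30.2%). BnaA09g47380D held 7.0% to 26.3% and BnaC05g09690D 1.9% to 17.9%. These shares are not corrected for gene length and for reads lost to several loci, so they describe counts and not molecules of each copy.

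BnaA08g24900D had the lowest WD level relative to control of the 4 copies at 11 d and at 18 d. Its level was 5.45, 2.78 and 2.02 CPM in WD leaves at 5 d, against 17.1, 11.4 and 8.78 CPM in controls, a log2 fold change of -1.87. It was 1.58, 1.66 and 2.66 CPM in WD leaves at 11 d, against 14.8, 15.0 and 32.2 CPM in controls, with a log2 fold change of -3.43, or -2.76 without control replicate 3. The highest WD library at 11 d was thus far below the lowest control. At 20 d the level was 7.83, 10.4 and 8.30 CPM in WD leaves, against 28.1, 36.1 and 24.7 CPM in controls (log2 fold change -1.74). The mean of WD leaves was 29.8% of the control mean at 20 d and 9.5% at 11 d. Ordered by their means, the 8 groups began with WD at 11 d, 5 d, 18 d and 20 d and went on with controls at 5 d, 11 d, 18 d and 20 d, and each group overlapped its neighbour below.

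BnaC08g15370D, the most counted copy, followed the same order of groups. It had 7.50, 4.13 and 3.65 CPM in WD leaves at 5 d, against 25.6, 15.2 and 16.8 CPM in controls (log2 fold change -1.92). It had 4.28, 3.00 and 4.12 CPM in WD leaves at 11 d, against 18.7, 19.6 and 33.5 CPM in controls (log2 fold change -2.69, and -2.22 without control replicate 3). It had 13.9, 19.3 and 15.5 CPM in WD leaves at 20 d, against 39.6, 53.7 and 40.5 CPM in controls (log2 fold change -1.45). Again no WD library overlapped a control of its harvest. In the order of group means, WD at 18 d did not overlap WD at 5 d below it, and every other group overlapped its neighbour.

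The other pair of copies was at lower levels. BnaA09g47380D had 2.04, 1.78 and 1.24 CPM in WD leaves at 5 d, against 4.68, 4.43 and 2.72 CPM in controls (log2 fold change -1.21). At 11 d it had 2.11, 1.18 and 2.66 CPM in WD leaves, against 2.93, 2.72 and 8.37 CPM in controls, so that the highest WD library came close to the lowest control. The log2 fold change at 11 d was -1.28 with all libraries and -0.40 without control replicate 3, so that 1 control library carried most of it. At 20 d the copy had 5.52, 5.08 and 4.49 CPM in WD leaves, against 8.28, 9.26 and 7.66 CPM in controls (log2 fold change -0.75), with no overlap of the groups. Ordered by means, WD at 20 d stood above the controls of 5 d and 11 d, whose ranges it overlapped, and below the controls of 18 d, which it did not overlap.

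BnaC05g09690D, the least counted copy, was the only copy with a positive log2 fold change at 5 d. At 5 d it had 1.43, 1.35 and 1.37 CPM in WD leaves, against 0.935, 1.32 and 1.04 CPM in controls. These are 21, 19 and 21 counts in WD leaves and 12, 17 and 23 counts in controls, and the log2 fold change of 0.32 fell to 0.14 without control replicate 1. At 11 d it had 1.74, 0.697 and 0.665 CPM in WD leaves, against 1.13, 1.80 and 4.36 CPM in controls, so that the groups overlapped (log2 fold change -1.32, and -0.37 without control replicate 3). At 20 d it had 1.20, 0.834 and 1.0 CPM in WD leaves, against 4.31, 6.55 and 3.67 CPM in controls (log2 fold change -2.24). Its WD mean at 20 d was 20.9% of the control mean, the lowest share of the 4 copies at that harvest.

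Whether NPF6.3 also differed in leaves kept at the milder deficit was tested with the 18 d libraries. These did not enter the study's selection, but the genes were picked with earlier results of these data known. BnaA08g24900D fell to 8.74, 7.76 and 3.67 CPM in WD leaves, against 28.6, 18.5 and 17.7 CPM in controls (log2 fold change -1.69 ± 0.39, SE, adjusted p = 0.0183). BnaC08g15370D fell to 16.8, 20.1 and 8.65 CPM in WD leaves, against 44.0, 32.7 and 29.2 CPM in controls (-1.22 ± 0.32, adjusted p = 0.0331). These changes correspond to levels 3.24-fold and 2.33-fold lower in WD leaves. BnaA09g47380D had 5.67, 2.81 and 1.62 CPM in WD leaves, against 9.68, 6.81 and 6.84 CPM in controls, with no overlap (-1.25 ± 0.42, adjusted p = 0.0909). BnaC05g09690D had 2.60, 2.21 and 0.661 CPM in WD leaves, against 4.71, 2.95 and 2.26 CPM in controls, with an overlap (-0.88 ± 0.49, adjusted p = 0.329). Neither of these copies passed the threshold of 0.05, at standard errors that leave room for differences of the size seen in the other pair.

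NRT2.5, the high-affinity transporter, had a log2 fold change farther from 0 at 18 d than any NPF6.3 copy. It fell to 1.89, 2.07 and 0.361 CPM in WD leaves, against 37.7, 33.9 and 17.6 CPM in controls, or 24, 31 and 6 counts against 561, 563 and 351 counts. The log2 fold change was -4.39 ± 0.89 (adjusted p = 0.0102), a level 21.0-fold lower. Thus 3 of the 5 genes were called lower in WD leaves at 18 d, where 2.53% of all tested genes were called lower, and all WD libraries lay below all controls in 4 of the 5 genes, where 13.8% of all tested genes showed this.

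In the comparison at 18 d, 3016 of all tested genes were called, 54.1% of them higher in WD leaves. With plain library sizes 20.3% of the called genes were higher and the median log2 fold change of all genes moved to -0.25, against 0.01 with TMM scaling, to which the changes given here refer. The 5 genes were lower in WD leaves with either scaling. The calls of the NPF6.3 copies were not robust to the loss of a library. BnaA08g24900D passed the threshold in 2 of 6 fits that left out 1 of the 18 d libraries. It missed it without WD replicate 1 (adjusted p = 0.0508) or 2 (0.0523), or without control replicate 1 (0.0905) or 2 (0.0575). BnaC08g15370D passed in 2 of 6 and missed it without WD replicate 1 (0.0942) or 3 (0.0860), or without control replicate 1 (0.138) or 2 (0.0979). NRT2.5 passed in 5 of 6 and missed it without control replicate 1 (0.0506). Without WD replicate 3, the library that stood apart, the log2 fold changes were -1.40 for BnaA08g24900D, -0.94 for BnaC08g15370D, -0.88 for BnaA09g47380D, -0.46 for BnaC05g09690D and -3.85 for NRT2.5.

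At the other harvests NRT2.5 was scarce in all WD leaves, and in young control leaves as well. Its level at 5 d was 0.273, 0.285 and 0.0651 CPM in WD leaves, against 0.779, 0.233 and 0.317 CPM in controls, which overlapped. These are 9 counts in the WD libraries together and 20 in the controls, a rate ratio of 0.488. So few counts do not show whether a difference was present at this harvest. At 11 d the level was 0.264, 0.107 and 0.199 CPM in WD leaves, against 0.751, 10.3 and 43.4 CPM in controls. Here the controls spanned the whole range seen between 5 d and 20 d, and the lowest of them held 10 counts, as many as the 3 WD libraries together. The log2 fold change of -6.51 at 11 d became -4.46 without control replicate 3 and -7.36 without control replicate 1. At 20 d NRT2.5 had 0.720, 1.29 and 0.793 CPM in WD leaves, against 39.6, 44.3 and 31.0 CPM in controls (log2 fold change -5.36). The WD mean was 2.4% of the control mean at 20 d and 4.8% at 18 d, and the difference between these harvests was not tested.

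Over the 4 harvests, all WD libraries lay below all controls in 3 of the 5 genes at 5 d, in 4 at 11 d, in 4 at 18 d and in 5 at 20 d. Among all tested genes such a separation was seen for 9.92% (5 d), 9.61% (11 d), 13.8% (18 d) and 24.2% (20 d). Apart from that of 18 d, the counts follow from the selection and are given as a description.

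In control leaves, NRT2.5 had the highest log2 fold change of the 5 genes over time. It rose to 37.7, 33.9 and 17.6 CPM in 18 d controls, against 0.779, 0.233 and 0.317 CPM in 5 d controls, with a log2 fold change of 6.10 ± 1.02 (adjusted p = 0.00125). By counts, 1475 in the 18 d controls and 20 in the 5 d controls, the ratio was 68.6 with an exact 95% interval of 44.3 to 113. This interval covers counting error alone and leaves out the spread between libraries. The 5 d controls took part in the selection of the genes, the 18 d controls did not. At 11 d and 20 d the log2 fold change over 5 d controls was 5.37 and 6.46. Without replicate 3 of the 11 d controls, the first of these was 3.22. Ordered by means, NRT2.5 was lowest in WD leaves at 11 d and 5 d, followed by 5 d controls and by WD leaves at 20 d and 18 d. The controls of 11 d, 18 d and 20 d came last. Each group overlapped its neighbour below, the 11 d controls by replicate 1 alone.

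Of the NPF6.3 copies, BnaC05g09690D alone was called higher in 18 d controls, with 4.71, 2.95 and 2.26 CPM in 18 d controls against 0.935, 1.32 and 1.04 CPM in 5 d controls (log2 fold change 1.54 ± 0.51, adjusted p = 0.0392). That call was kept without replicate 3 of the 18 d controls and missed the threshold in the other 5 fits that left out a library (adjusted p from 0.0775 to 0.156). BnaA08g24900D had a log2 fold change of 0.81 ± 0.38 (adjusted p = 0.136), BnaC08g15370D of 0.88 ± 0.31 (adjusted p = 0.0555) and BnaA09g47380D of 0.98 ± 0.41 (adjusted p = 0.103). With plain library sizes these 3 copies passed the threshold as well. Called higher in the 18 d controls were 2 of the 5 genes and 12.1% of all tested genes, a description only, since the 5 d controls entered the selection. From 5 d to 20 d, log2 fold changes in controls were 1.29 for BnaA08g24900D, 1.24 for BnaC08g15370D, 1.11 for BnaA09g47380D and 2.12 for BnaC05g09690D. At 11 d they were 0.81, 0.37, 0.29 and 1.20 in the same order of copies, and 0.17, -0.10, -0.56 and 0.21 without replicate 3. The values at 11 d therefore rested on that library.

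Replicate 3 was the highest of the 11 d controls in all 5 genes, as in 42.0% of all tested genes, and replicate 1 the lowest in 4 of the 5, as in 37.2% of all tested genes. In NRT2.5 this library order ran from 0.751 to 43.4 CPM. The positions of these libraries on the line between the 5 d and the 20 d controls ran the same way. For NRT2.5, 5 d controls lay between -0.05 and 0.08 on this line with at most 0.779 CPM, and 18 d and 20 d controls between 0.80 and 1.1 with 17.6 CPM or more. WD leaves at 20 d lay between 0.61 and 0.78 with at most 1.29 CPM, and the 2 WD libraries of 18 d nearest to the controls lay at 0.75 and 0.78 with 1.89 and 2.07 CPM. The nearest controls on either side were at 0.59 with 10.3 CPM and at 0.80 with 17.6 CPM. WD replicate 3 of 18 d, at 0.23, held 0.361 CPM, and control replicate 1 of 11 d, at 0.22, held 0.751 CPM. Replicate 3 was the lowest WD library of 18 d in all 5 genes, as in 38.0% of all tested genes. The part of leaf age or development in these levels was not tested.

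**Figure D2:**
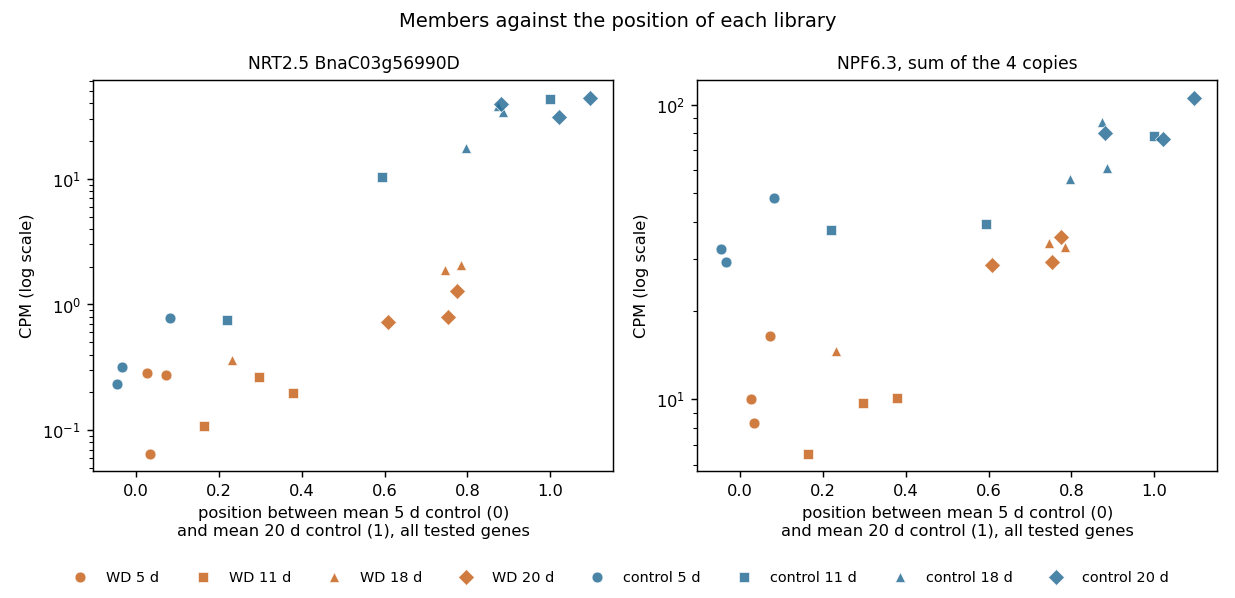
Level in CPM (log axis) of NRT2.5 (left) and of the 4 NPF6.3 copies summed (right) in each library against its position on the line between the mean 5 d control (0) and the mean 20 d control (1), computed over all tested genes. Orange symbols are WD libraries, blue symbols control libraries, and shapes give the harvest. NRT2.5 is at or below 2.07 CPM in every WD library and above 10 CPM in each control beyond position 0.5, while summed NPF6.3 is at 29.3 CPM or more in every control and at 35.6 CPM or less in every WD library.

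The balance between copies was compared within libraries, where library size cancels. Each pair joined a copy of subgenome A with a copy of subgenome C, in the order in which the copies are named at the start. No sequences or positions were compared, so the copies of a pair are not known to be counterparts. The log2 ratio of BnaA08g24900D over BnaC08g15370D was -0.94, -1.37 and -1.23 in WD leaves at 18 d, against -0.62, -0.82 and -0.72 in controls. All WD libraries lay below all controls, and the means differed by -0.46 (two-sided exact permutation test, p = 0.1, adjusted p = 0.2 over 2 pairs of copies). With 3 libraries against 3, 0.1 is the smallest p this test can give. At 11 d this ratio averaged -0.96 ± 0.41 in WD leaves and -0.26 ± 0.18 in controls (SD, n = 3 each), and at 20 d -0.87 ± 0.04 in WD leaves and -0.59 ± 0.11 in controls, without overlap at either harvest. The difference of the means at 11 d was -0.70 with all libraries, -0.60 without control replicate 3 and -0.74 without control replicate 1, and that at 18 d was -0.43 without WD replicate 3. At 5 d it was -0.62 ± 0.20 in WD leaves and -0.65 ± 0.26 in controls. In the libraries of 11 d, 18 d and 20 d, BnaA08g24900D held a smaller part of the counts of its pair in WD leaves. At 18 d this part was 27.9% to 34.3% in WD leaves and 36.2% to 39.4% in controls. The harvests of 11 d and 20 d entered the selection of the copies. The test at 18 d could give no p below 0.1, so that the pattern is a description only.

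The ratio of BnaA09g47380D over BnaC05g09690D differed between WD leaves and controls in opposite directions at 5 d and 20 d. Both harvests entered the selection, and BnaC05g09690D held only 15, 11 and 19 counts in WD leaves at 20 d. At 5 d the log2 ratio was 0.50, 0.39 and -0.14 in WD leaves, against 2.28, 1.72 and 1.36 in controls. At 20 d it was 2.16, 2.55 and 2.13 in WD leaves, against 0.94, 0.50 and 1.06 in controls. The groups were apart at both harvests, with WD below control at 5 d and above it at 20 d. At 18 d the ratio was 1.11, 0.34 and 1.26 in WD leaves, against 1.04, 1.20 and 1.58 in controls, a difference of -0.37 that was within the spread of the libraries (two-sided exact permutation test, p = 0.5, adjusted p = 0.5). At 11 d the groups overlapped as well, with means of 0.99 ± 0.86 in WD leaves and 0.96 ± 0.38 in controls (SD, n = 3 each). The difference of 0.03 at 11 d was 0.01 without control replicate 3 and 0.22 without control replicate 1, and that at 18 d was -0.54 without WD replicate 3 and -0.09 without WD replicate 2. The share of BnaA09g47380D in the counts of its pair was 47.5% to 58.8% in WD leaves and 72.3% to 83.3% in controls at 5 d, and 81.7% to 85.9% in WD leaves and 58.6% to 67.6% in controls at 20 d.

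**Figure D3:**
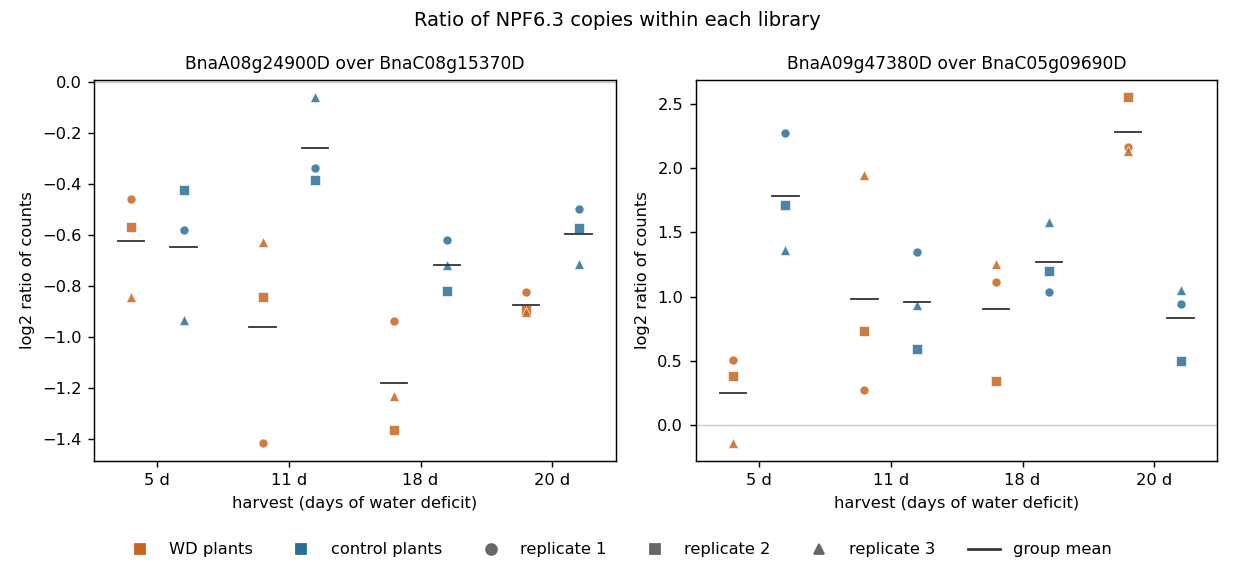
Log2 ratio of the counts of paired NPF6.3 copies within each library, BnaA08g24900D over BnaC08g15370D (left) and BnaA09g47380D over BnaC05g09690D (right), by harvest. Orange symbols are WD plants, blue symbols control plants, shapes are replicates and lines are group means. On the left WD libraries lie below controls at 11 d, 18 d and 20 d; on the right they lie below controls at 5 d and above them at 20 d.

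Over the 24 libraries, BnaA08g24900D and BnaC08g15370D had the most similar course of the 5 genes, with a Pearson correlation of log2(CPM + 1) of 0.97. BnaA09g47380D correlated with these copies at 0.89, and BnaC05g09690D with the other copies at 0.71 to 0.75. BnaC05g09690D stood closer to NRT2.5, at 0.89, than to any NPF6.3 copy. The libraries share groups and harvests, so that these values describe profiles only. Among all tested genes with a mean of at least 1 CPM, BnaC05g20350D, annotated as a ureide permease, came next to BnaC08g15370D in likeness to BnaA08g24900D (0.96). It averaged 2.74 CPM in WD leaves and 12.0 CPM in controls at 18 d. It was also second for BnaC08g15370D (0.95), followed by BnaA06g27240D (0.94), while BnaA01g24940D came after it for BnaA08g24900D (0.94). The genes most like NRT2.5 were BnaC07g36580D, annotated as a cationic amino acid transporter, BnaC02g19910D and BnaC02g31270D, annotated as a leucine-rich repeat protein kinase, each at 0.99. BnaC07g36580D averaged 2.36 CPM in WD leaves and 39.0 CPM in controls at 18 d. For BnaA09g47380D the nearest genes were BnaCnng64100D, BnaA05g08310D and BnaC04g36630D (0.91 to 0.93). For BnaC05g09690D they were BnaC04g26500D, BnaA04g07030D, annotated as a short-chain dehydrogenase/reductase, and BnaC08g45390D (each 0.94).

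Other nitrogen genes of the study's tables served for comparison, 8 transporter genes and 3 glutamine synthetase genes, the enzyme that assimilates ammonium. They too were selected on WD against control at those harvests (5 d, 11 d or 20 d). At 18 d all 8 transporter genes had negative log2 fold changes, with a median of -1.41, and 4 of the 8 were called lower, beside 2.53% of all tested genes and an overall median of 0.01. NRT3.1 (BnaC03g27680D), the partner protein of the NRT2 family, had 0.630, 1.81 and 0 CPM in WD leaves, against 3.36, 4.16 and 1.96 CPM in controls (log2 fold change -2.08 ± 0.98, adjusted p = 0.237), with -1.33 without WD replicate 3 and -3.31 without WD replicate 2. Its profile correlated with that of NRT2.5 at 0.95. NPF7.3 (BnaA05g35790D), known in Arabidopsis roots for loading nitrate into the xylem, fell to 1.02, 0.401 and 0.481 CPM in WD leaves, against 9.62, 6.99 and 4.37 CPM in controls (-3.50 ± 0.66, adjusted p = 0.00730). It stayed past the threshold whichever library was left out.

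Among ammonium transporters, AMT1-1 BnaC08g08610D was called lower at 0.0787, 0.201 and 0.120 CPM in WD leaves, against 2.15, 2.29 and 1.16 CPM in controls (-3.90 ± 1.04, adjusted p = 0.0360), on 6 counts in the WD libraries together. This gene passed the filter on low counts only through controls of 11 d, 18 d and 20 d, the groups in which it was high. Without that filter it was called lower as well (edgeR quasi-likelihood test, adjusted p = 0.0369). Its other copy BnaA05g35560D had 27.7, 22.3 and 22.4 CPM in WD leaves, against 71.3, 82.3 and 50.3 CPM in controls (-1.51 ± 0.53, adjusted p = 0.102). AMT2 (BnaCnng62050D) differed least, at 6.22, 5.95 and 2.64 CPM in WD leaves and 6.46, 7.65 and 5.18 CPM in controls (-0.37 ± 0.49, adjusted p = 0.731). The urea transporter DUR3 was called lower for BnaA02g23880D (-0.96 ± 0.27, adjusted p = 0.0476) and had a log2 fold change of -0.78 ± 0.25 for BnaC02g46970D (adjusted p = 0.0796). UPS1 (BnaC02g35070D), a ureide permease, was called lower (-1.31 ± 0.37, adjusted p = 0.0451). The calls of BnaA02g23880D and BnaC02g35070D were lost whichever of the 6 libraries was left out, and that of BnaC08g08610D in 5 of 6 fits. Of the glutamine synthetase genes, BnaC02g06690D was called lower, at 122, 159 and 52.0 CPM in WD leaves against 484, 431 and 382 CPM in controls (-1.96 ± 0.48, adjusted p = 0.0235, lost in 4 of 6 fits with a library left out), while BnaA02g03140D and BnaA10g17910D had log2 fold changes of -1.24 and -0.49 that missed the threshold. Without WD replicate 3 the value of BnaA10g17910D was -0.07, and without WD replicate 2 it was -0.90. AMT2 had a log2 fold change of 0.0025 without WD replicate 3.

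**Figure D4:**
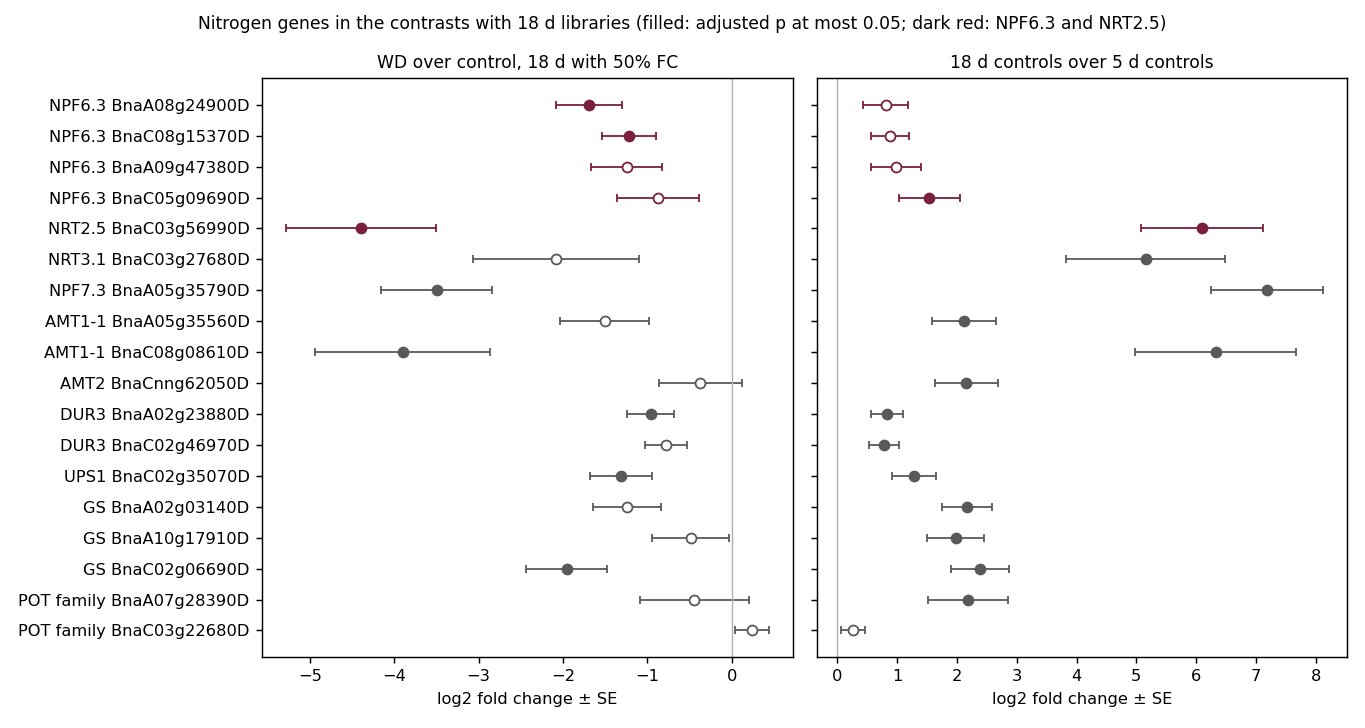
Log2 fold change ± SE of the NPF6.3 and NRT2.5 genes (dark red) and of the other nitrogen genes (grey; GS, glutamine synthetase; POT family, proton-dependent oligopeptide transporters). The left panel shows WD over control at 18 d with 50% FC and the right panel 18 d over 5 d controls, with filled symbols for an adjusted p of 0.05 or less. NRT2.5, at -4.39 and 6.10, lies farther from 0 than the NPF6.3 copies in both panels.

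In control leaves all 8 transporter genes and all 3 glutamine synthetase genes were called higher at 18 d than at 5 d, as were 12.1% of all tested genes. This too is a description, since the 5 d controls entered the selection of these genes. Both DUR3 calls were lost whichever library was left out, and that of UPS1 in 4 of 6 fits, while NRT3.1 and AMT1-1 BnaA05g35560D each lost theirs in 1 fit and AMT2 in 2. NPF7.3 (log2 fold change 7.19 ± 0.94), AMT1-1 BnaC08g08610D (6.32 ± 1.35) and NRT3.1 (5.15 ± 1.33) had the highest fitted values of the list, which rest on 2, 1 and 4 counts in all 5 d controls together and so depend on the prior count of the fit. A further 2 genes of the family to which NPF6.3 belongs, the proton-dependent oligopeptide transporters, were measured as well. BnaA07g28390D was called higher in 18 d than in 5 d controls (2.18 ± 0.67, adjusted p = 0.0279, lost in 4 of 6 fits with a library left out) and BnaC03g22680D was not (0.26 ± 0.20, adjusted p = 0.387). At 18 d BnaA07g28390D had 31.6, 78.9 and 7.21 CPM in WD leaves, against 55.7, 49.8 and 38.0 CPM in controls (-0.45 ± 0.65, adjusted p = 0.760), with 0.10 without WD replicate 3 and -1.29 without WD replicate 2. BnaC03g22680D had 16.5, 13.5 and 17.0 CPM in WD leaves, against 15.4, 13.3 and 11.6 CPM in controls (0.24 ± 0.20, adjusted p = 0.562).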

How the data were processed

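Leaf RNA was prepared with a stranded poly(A) kit and sequenced as read pairs. The authors trimmed reads with Trimmomatic, removed ribosomal RNA with SortMeRNA and mapped pairs with STAR, per the study's methods and the labels; versions and annotation used for these steps are not repeated here. The deposited files hold, for each library, counts of pairs per gene on both strands together and on each strand, and the column of the strand that the kit retains was used. Lines that name no gene (unmapped pairs, pairs at several loci, pairs on no gene or on several) were left out of library sizes, and 80.8% to 84.2% of pairs lay on genes.

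Genes with at least 0.6 CPM in at least 3 libraries were tested with edgeR 4.0.16 (quasi-likelihood test, TMM scaling, R 4.3.3) in 1 model of 24 libraries with 8 groups and the replicate number as an additive term, as in the study's model, with Benjamini-Hochberg adjustment over all 54835 genes and a threshold of 0.05. Approximate standard errors were obtained by dividing each log2 fold change by the square root of its F statistic. Contrasts between controls of 11 d or 20 d and 5 d were planned as tests and are given as values, since all those libraries entered the selection of the genes. Copy ratios used a pseudocount of 0.5 counts and an exact permutation test. The interval of the NRT2.5 count ratio (scipy 1.17.1) is conditional binomial and covers counting error alone. The position of a library is its projection, in log2(CPM + 1), on the line between the mean 5 d and 20 d controls. The named genes are the 5 genes, the other nitrogen genes of the study's tables and, per gene, the 3 with the highest correlation. Other tools were Python 3.11.15, numpy 2.4.6, pandas 2.3.3 and matplotlib 3.10.9. The fits were also run on simulated counts in which no library was made to stand apart, and the outcome is not reported here.

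The genes and lists were chosen with earlier results of these data known. Alternatives were no replicate term, a likelihood ratio test, DESeq2 1.42.0, its size factors in edgeR, no filter or filterByExpr, the unstranded counts, the 6 libraries of a contrast alone and each library left out in turn. Plain library sizes as an alternative for the tested contrasts, and the summed level and copy ratios without the libraries that stood apart, were added after seeing the data. The files' gene identifiers could not be matched to the RefSeq table at hand, and no sequences or coordinates are given.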

Additional observations from a re-analysis of the deposited data

Results flagged for a closer look

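The NPF6.3 copy BnaC05g09690D lay higher in every WD library than in every control at 5 d, with a log2 fold change of 0.32, and lower in every WD library than in every control at 20 d, with -2.24. The gap at 5 d was narrow, with 1.35 CPM in the lowest WD library and 1.32 CPM in the highest control. The raw counts overlapped there, at 21, 19 and 21 in WD leaves and 12, 17 and 23 in controls. Both harvests entered the selection. At 20 d, 24.2% of all tested genes had every WD library below every control, and the share with WD above control at 5 d was not computed. Without control replicate 1 the log2 fold change at 5 d was 0.14. The difference between the harvests was not tested.

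The log2 ratio of the copies BnaA09g47380D over BnaC05g09690D was lower in WD leaves than in controls at 5 d, by -1.53 (WD minus control), and higher in WD leaves at 20 d, by 1.45, without overlap at either harvest. At 5 d BnaC05g09690D held 12 to 23 counts per library, and in WD leaves at 20 d it held 15, 11 and 19 counts. Both harvests entered the selection of the copies, and how often ratios of other genes separate in this way was not computed. The difference between the harvests was not tested. Groups of 3 libraries are too small to test whether a single library is outlying, so that libraries said to stand apart are only described as such.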

How the results depend on the processing

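Directions of the 5 nitrate transporter genes at 18 d and in 18 d against 5 d controls were kept under every alternative run. For WD against control at 18 d, 4631 genes were called by the likelihood ratio test, 4659 by DESeq2 and 1199 in the 6 libraries alone, against 3016, and the cause was not tested. With 1 library left out the count ran from 595 to 4355. It moved by more than 1.5 times without WD replicate 1 (1131) or 2 (810) and without control replicate 1 (687) or 2 (595). In these fits log2 fold changes ran from -1.88 to -1.40 for BnaA08g24900D, -1.54 to -0.94 for BnaC08g15370D, -1.75 to -0.88 for BnaA09g47380D, -1.17 to -0.46 for BnaC05g09690D and -4.80 to -3.85 for NRT2.5. BnaC08g15370D missed the threshold in the 6 libraries alone (-1.28, adjusted p = 0.0790), and BnaA09g47380D passed it with the likelihood ratio test (-1.24, adjusted p = 0.0493) and plain library sizes (-1.51, adjusted p = 0.0282). Of the other nitrogen genes, AMT2 (-0.68 to 0.0025) and BnaA07g28390D (-1.29 to 0.10) turned positive without WD replicate 3, and BnaC03g22680D turned to -0.0097 with plain library sizes. The copy ratio differences ran from -0.58 to -0.37 for BnaA08g24900D over BnaC08g15370D and from -0.54 to -0.09 for BnaA09g47380D over BnaC05g09690D. For 18 d against 5 d controls the count of 11467 ran from 6059 to 10044 with 1 library left out, and fell by more than 1.5 times without 5 d replicate 2 (6216) or 3 (6059) or 18 d replicate 1 (6378) or 2 (6697). Here log2 fold changes ran from 0.64 to 1.04 for BnaA08g24900D, 0.73 to 1.08 for BnaC08g15370D, 0.75 to 1.19 for BnaA09g47380D, 1.27 to 1.72 for BnaC05g09690D and 5.76 to 6.77 for NRT2.5. With plain library sizes and in the 6 libraries alone, the threshold was passed by BnaA08g24900D (1.04 and 0.86), BnaC08g15370D (1.11 and 0.93) and BnaA09g47380D (1.21 and 1.04). BnaC08g15370D also passed with the likelihood ratio test (0.88) and DESeq2 (0.88).

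Without the replicate block, 3328 genes were called at 18 d and 11888 in 18 d against 5 d controls, where BnaC08g15370D then passed the threshold (0.88, adjusted p = 0.0498). No other call of the 5 genes changed. Libraries with the same number did not deviate together on average, with a mean correlation of -0.01 over 84 pairs of libraries (0.01 over 168 pairs with other numbers) and -0.05 to 0.06 between WD and control at 18 d. Single pairs with the same number ran from -0.47 to 0.50. With 3 libraries per group these values cannot settle whether the numbers pair the libraries. Depth limits NRT2.5 at 5 d and in WD leaves at 11 d, where a library held 1 to 10 counts.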
